A study of Mus musculus with 198 samples.

Results

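The haemoglobin chains and Alas2, the haem synthesis enzyme of red cell precursors, were followed in hippocampus and striatum of the inbred mouse strains that make up the Hybrid Mouse Diversity Panel. Members were all probes of the array annotated to the symbols Hba-a1, Hbb-b1, Hbb-b2, Hbb-bt or Alas2. Of these 5 symbols 4 had a probe, 1 each, so the members were 4 of 16593 genes and 4 of the 25697 probes on the array. Hba-a1 (ILMN_1212702, designed on NM_008218) lies on chromosome 11, Hbb-bt (ILMN_1235372, NM_008220) and Hbb-b2 (ILMN_2729513, NM_016956) belong to the beta globin locus of chromosome 7, and Alas2 (ILMN_2675874, NM_009653) lies on chromosome X. No probe carried the symbol Hbb-b1.

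The paper describes young adult males of these inbred strains, trained in a foot shock fear procedure and tested for memory, with no untrained group. Brains were taken after euthanasia, and whether each arrayed mouse had been trained is not stated. RNA of dissected hippocampus (100 arrays, 99 strains) and striatum (98 arrays, 97 strains) was hybridized to Illumina MouseRef-8 arrays, and 96 strains had an array of both tissues. The strains fell into 3 sets of recombinant inbred (RI) strains, each from a cross of B6 (C57BL/6) with another parent, and a set of classical inbred strains. The BXD set (parents B6 and DBA) had 30 strains in each tissue, the AXB/BXA set (AJ and B6) 28, the BXH set (B6 and C3H) 11 in hippocampus and 10 in striatum, and the classical set 29 and 28. The name B6Cc3 was carried by 2 arrays per tissue and was kept out of the sets. Every other strain had 1 array per tissue, so all spreads given are spreads between strains, whose RI members are related to each other. P-values treat strains as exchangeable.

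Haemoglobin is a tetramer of alpha and beta chains, each of which holds a haem group. It is made in red cell precursors and reticulocytes, and RNA of reticulocytes can reach a brain sample with the blood in its vessels. The source of the globin RNA in these samples was not tested. The alpha genes Hba-a1 and Hba-a2 on chromosome 11 are near identical copies. The adult beta genes of the mouse occur in strain haplotypes: C57BL/6 carries the single haplotype, with the near identical genes Hbb-bs and Hbb-bt, and strains such as DBA, A/J and BALB/c carry the diffuse haplotype, with the major gene Hbb-b1 and the minor gene Hbb-b2. Alas2 is the X-linked, erythroid form of aminolevulinate synthase, the first enzyme of haem synthesis.

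To show the sequence next to these genes, the 200 bases before the transcription start are given for Hba-a1, Hbb-bt and its neighbour Hbb-bs, and Alas2, 5′ to 3′ on the strand of the gene, from RefSeq (GRCm38.p6, a C57BL/6J genome). Capitals mark matches on either strand to the motif GATA, whose letters GATA factors bind, to the motif CCAAT, to the motif CACCC, the letters of the erythroid Krüppel-like factor, and to the motif TATAA. The windows are chr11:32283472-32283671 (+) for Hba-a1, chr7:103813924-103814123 (-) for Hbb-bt, chr7:103827929-103828128 (-) for Hbb-bs and chrX:150547217-150547416 (+) for Alas2.
Hba-a1: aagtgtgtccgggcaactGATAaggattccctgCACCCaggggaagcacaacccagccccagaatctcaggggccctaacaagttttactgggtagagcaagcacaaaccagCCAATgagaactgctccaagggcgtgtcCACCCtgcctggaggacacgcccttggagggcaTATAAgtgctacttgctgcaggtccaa
Hbb-bt: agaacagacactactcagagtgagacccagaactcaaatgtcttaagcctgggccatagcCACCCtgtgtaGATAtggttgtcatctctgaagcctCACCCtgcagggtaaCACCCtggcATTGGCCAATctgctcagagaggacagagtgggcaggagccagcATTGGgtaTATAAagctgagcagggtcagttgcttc
Hbb-bs: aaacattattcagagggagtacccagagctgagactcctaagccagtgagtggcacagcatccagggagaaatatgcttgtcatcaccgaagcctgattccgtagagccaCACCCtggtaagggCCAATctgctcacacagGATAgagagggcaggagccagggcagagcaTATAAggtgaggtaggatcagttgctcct
Alas2: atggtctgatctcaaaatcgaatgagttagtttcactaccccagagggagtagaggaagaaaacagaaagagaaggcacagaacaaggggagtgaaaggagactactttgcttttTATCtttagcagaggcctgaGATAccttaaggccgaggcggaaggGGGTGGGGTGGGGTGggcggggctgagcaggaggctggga

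The 3 globin windows held all 4 motifs, and that of Alas2 held 2 GATA and 3 CACCC matches with no CCAAT or TATAA. Hbb-bt had 3 CCAAT and 3 CACCC matches where Hbb-bs had 1 of each. No match of one motif overlapped a match of another. Of 32851 promoter windows of this length 45.4% held GATA, 29.3% CCAAT, 45.5% CACCC, 18.5% TATAA and 1.1% all 4. A match is only a run of letters and not a measured site. The 300 base windows of Hba-a1 and Hba-a2 around their starts shared an unbroken run of 297 bases. Which of the alpha copies, and which of the beta genes, gave RNA to a probe was not measured here, so each probe is called by its annotated symbol.

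A few arrays stood apart from the rest before any globin result was read. The hippocampus array of AXB19b correlated with the rest of its tissue at a median rank r of 0.615, and the striatum arrays of SM and NZW had 0.856 to 0.89, against at least 0.914 and 0.919 for the others. For 23 of the 95 strains with both arrays (B6Cc3 left out) the hippocampus array correlated best with the striatum array of another strain, and for AXB19b with that of SM. The tissue labels held in the neuronal markers. All 9 tested probes of striatal neuron markers were higher in striatum, such as Rgs9, a regulator of dopamine receptor signalling, by 5.47 on the log2 scale, and all 5 of hippocampal neuron markers were lower there, such as C1ql2, which fell by 4.24. A probe was called detected on an array at a detection p under 0.01, which 22.4% to 49.5% of the probes passed per hippocampus array and 35.2% to 46.4% per striatum array.

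The alpha chain was strongly expressed in every sample. The log2 signal of Hba-a1 was 12.50 at the lowest (BXD32), 13.84 at the median and 14.87 at the highest (AXB19a) over 99 strains in hippocampus, a range of 5.19-fold. In striatum it was 12.61 (RIII), 13.69 and 14.32 (BXD28), a range of 3.27-fold. The probe was detected on 100 of 100 and 98 of 98 arrays. The values formed a single run of strains in both tissues: separate levels were called where a normal mixture lowered the Bayesian information criterion (BIC) by over 10, and here the fall was -6.01 in hippocampus and -4.95 in striatum.

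Alas2 likewise ran without a break from strain to strain, nearer the detection limit. Its log2 signal was 5.18 (CAST), 6.94 and 8.71 (AXB19b) in hippocampus, and 5.50 (BXD21), 6.79 and 8.81 (BXA14) in striatum, each as the lowest, the median and the highest strain. It was detected on 87 of 100 hippocampus and 79 of 98 striatum arrays. The fall of the BIC was -8.89 and -7.76, so no separate levels were called.

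The beta probes split the strains into clear levels, and in opposite ways. Hbb-bt was 5.04 (AXB1), 7.27 and 9.99 (BXH20) in hippocampus and 5.12 (BXD32), 7.26 and 9.70 (SWR) in striatum, a range of 31.0-fold and 23.9-fold. Hbb-b2 was 4.92 (BXD21), 6.31 and 9.25 (BXA14) in hippocampus and 4.93 (BXD2), 6.29 and 8.84 (BXA13) in striatum. Hbb-bt was detected on 65 of 100 and 70 of 98 arrays and Hbb-b2 on 50 of 100 and 49 of 98. The signal of each beta probe taken alone gave levels 4.80 (Hbb-bt) and 4.89 (Hbb-b2) SD apart in hippocampus and 4.68 and 4.79 SD apart in striatum.

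To set the beta chains apart from how much globin RNA a sample held, the log2 signal of Hba-a1 was subtracted from that of each beta probe in the same array. This difference is compared only between strains, since signals of different probes have no common scale. Over 98 hippocampus strains (B6Cc3 left out) the Hbb-bt minus Hba-a1 difference had a high level of 50 strains with a mean of -5.26 and a low level of 48 with a mean of -7.76. The means lay 2.50 apart, 5.58 times the SD of 0.45 within a level, and the BIC fell by 68.37. The mixture divides the strains at a single value of the difference, so its levels cannot overlap. At their edges the lowest high strain was BXD21 at -6.10 and the highest low strain BXD32 at -6.83. In striatum 49 high strains had a mean of -5.28 and 47 low strains -7.50, 5.20 SD apart, with BXD16 at -6.24 and AXB1 at -6.46 on the edges. The hippocampus levels were not called on the authors' processed values, where the BIC fell by 6.91, while those of striatum were. How far apart the means lay depended on the processing. Against 2.50 in hippocampus and 2.22 in striatum, they lay 1.37 and 1.26 apart without background correction and 1.33 and 1.17 on the authors' values.

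The Hbb-b2 minus Hba-a1 difference gave the mirror image. In hippocampus 48 strains were high at a mean of -5.95 and 50 low at -8.32, 5.61 SD apart. In striatum 48 were high at -6.11 and 48 low at -8.15, 4.36 SD apart, and the edges almost met, with RIII at -7.10 and BXD31 at -7.13. The striatum levels were called neither on the authors' processed values (fall of the BIC -3.03) nor without background correction (5.78). In hippocampus all 98 strains had the levels of the beta probes opposed, high in one and low in the other (permutation p = 1e-05, the smallest that 100000 permutations of strains can give). In striatum 91 of 96 had (permutation p = 1e-05). The exceptions were BXD21, BXD38 and RIII, high in both differences, and BXD31 and BXD32, low in both. Their striatum Hba-a1 signals were 12.93, 12.78 and 12.61, and 13.76 and 13.17, beside a median of 13.69 over strains. Why these strains differed was not tested.

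**Figure D1:**
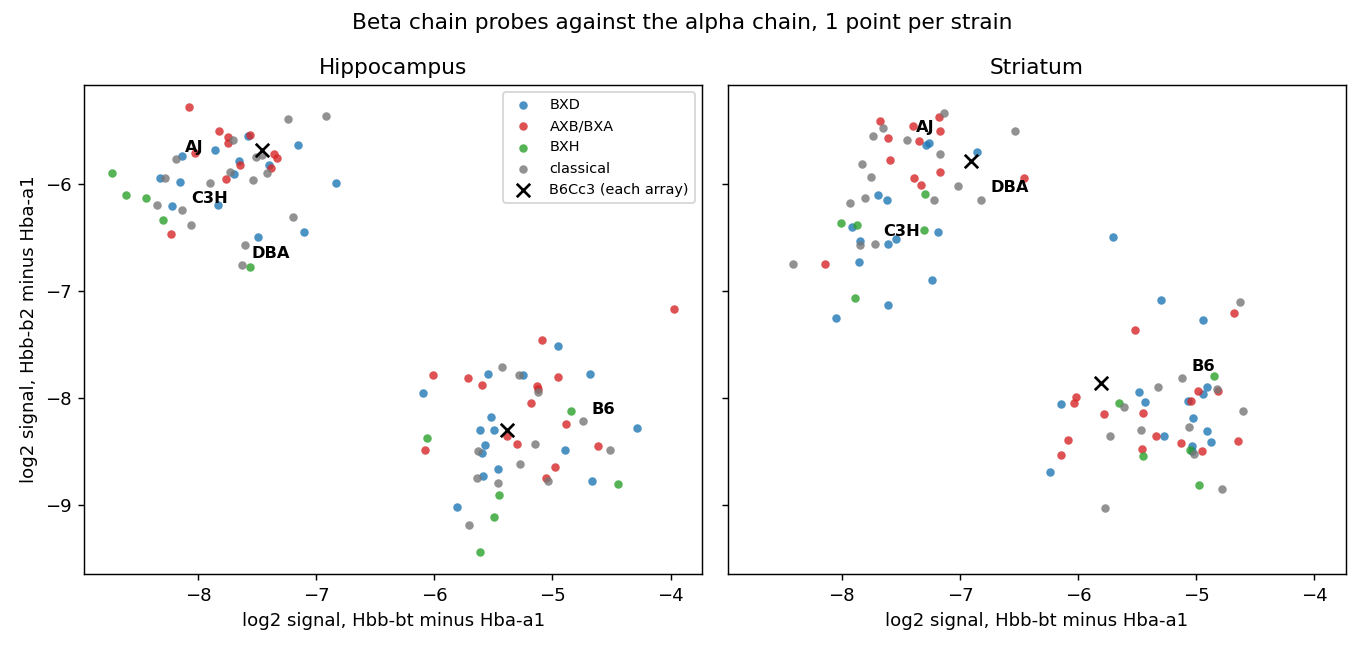
Hbb-bt minus Hba-a1 (horizontal axis) against Hbb-b2 minus Hba-a1 (vertical axis), both as log2 signal differences, with a point per strain coloured by set for hippocampus and striatum, the RI parents named and the B6Cc3 arrays as crosses. The strains form 2 clouds at opposite corners, 50 and 48 strains by the Hbb-bt difference in hippocampus and 49 and 47 in striatum, and the B6Cc3 arrays fall in different clouds.

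The detection calls, which were made on the same probe intensities and so are no separate measurement, followed the levels. Among the 50 strains at the high Hbb-bt level in hippocampus Hbb-bt was detected in 50 and Hbb-b2 in 2, and among the 48 at the low level Hbb-bt was detected in 13 and Hbb-b2 in 47. In striatum the counts were 49 and 2 of 49, against 19 and 46 of 47. Where a beta probe was not detected its signal could not be told from background. The mean of Hba-a1 differed between the levels by less than its SD within them: it was 13.82 ± 0.45 (SD, n = 50) at the high and 13.75 ± 0.52 (n = 48) at the low level in hippocampus, and 13.65 ± 0.37 (n = 49) and 13.65 ± 0.39 (n = 47) in striatum.

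The tissues of a strain shared the level. By the Hbb-bt difference all 95 strains with both arrays kept their level from one tissue to the other, including the 23 whose arrays matched another strain best over all probes (permutation p = 1e-05). The Hbb-b2 difference did so for 90 of 95 (94.7%, permutation p = 1e-05), with the same 5 exceptions. The beta signals alone agreed in 92 strains (Hbb-bt) and 91 (Hbb-b2). Without background correction, which narrows differences near background, the Hbb-bt difference agreed in 88 of 95, and on the authors' processed values in 85 of 95.

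Each RI set held strains of both levels, and its parents lay on opposite sides. B6, the shared parent, was high, with an Hbb-bt signal of 9.35 in hippocampus and 8.67 in striatum and a difference of -4.74 and -5.12. DBA had a difference of -7.63 and -6.82, AJ -8.19 and -7.45 and C3H -8.14 and -7.72, all low. The order was turned in Hbb-b2, with a signal of 5.87 and 5.98 in B6 against 6.51 and 6.63 in DBA, 8.27 and 8.06 in AJ and 8.15 and 7.43 in C3H.

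By set, 16 BXD strains were high and 14 low, and 16 AXB/BXA strains were high and 12 low, in both tissues. The BXH set had 6 high and 5 low strains in hippocampus and 5 and 5 in striatum, where BXH2 had no array. Between the levels the BXD set had a gap of -6.83 to -6.10 (hippocampus) and of -6.86 to -6.24 (striatum), AXB/BXA of -7.33 to -6.08 and -6.46 to -6.15, and BXH of -7.56 to -6.06 and -7.29 to -5.65. The narrowest of these gaps was that of AXB/BXA in striatum, between AXB1 and the lowest high strain. Names that share a number fell together, AXB19, AXB19a and AXB19b at the high and BXD24a and BXD24b at the low level.

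**Figure D2:**
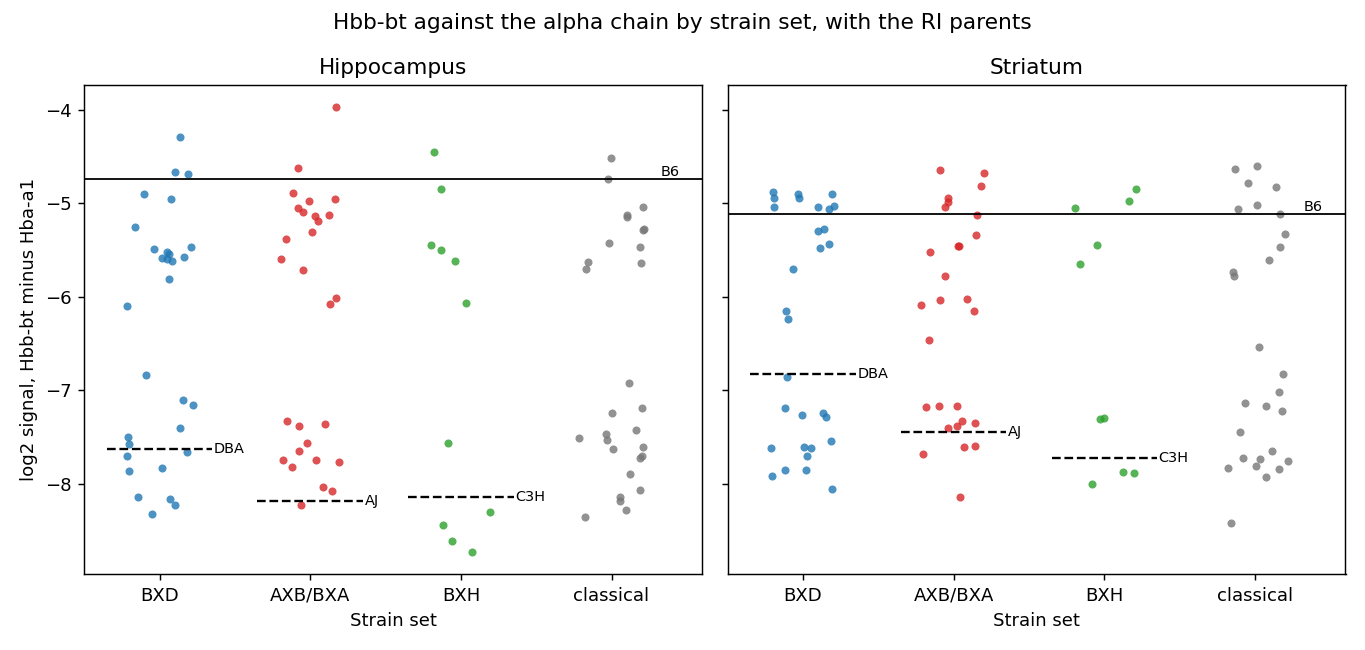
Hbb-bt minus Hba-a1 (log2 signal difference) for each strain by set, in hippocampus and striatum, with the RI parents drawn as lines (B6 solid, the other parent dashed). Every set has strains near the B6 line and strains near the other parent, with 16 and 14 strains in BXD, 16 and 12 in AXB/BXA, and 6 and 5 (hippocampus) or 5 and 5 (striatum) in BXH.

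The classical strains joined either side. High in both tissues were 12 strains: B6, C57L, C58, CAST, CE, KK, MA, NOD, NON, RIII, SM and SWR. Low were 17 in hippocampus: 129X1, AJ, AKR, BTBR, BUB, BalbcJ, C3H, CBA, DBA, FVB, I, LG, LPJ, NZB, NZW, PL and SEA. The same strains but SEA, which had no striatum array, made up the 16 low strains of striatum, where 129X1 is labelled X129X1. Their gap was -6.92 to -5.71 (hippocampus) and -6.53 to -5.77 (striatum).

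The pair of arrays named B6Cc3 did not match each other. In hippocampus replicate 1 had Hbb-bt at 8.47 and Hbb-b2 at 5.55, and replicate 2 had 6.40 and 8.19. In striatum replicate 1 had 7.95 and 5.89 and replicate 2 had 6.58 and 7.71. Replicate 1 thus read as a high and replicate 2 as a low strain in both tissues, while Hba-a1 was 13.85 and 13.87 in hippocampus and 13.76 and 13.49 in striatum. Their mean belongs to neither level, for which reason these arrays were left out of all fits over strains except the comparison of the tissues.

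Level and amount took different shares of the spread between strains, given here as a description because the level was read from these probes. The level alone accounted for 84.1% of the variance of Hbb-bt in hippocampus and 84.4% in striatum, and for 83.5% and 83.4% of that of Hbb-b2. Hba-a1 alone accounted for 9.85% and 4.21% of Hbb-bt and for 4.03% and 1.63% of Hbb-b2. For Alas2 it was the reverse, with 0.227% and 0.179% by the level and 44.3% and 52.2% by Hba-a1.

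Alas2 rose and fell with the alpha chain across strains. Pearson's r between Hba-a1 and Alas2 was 0.666 over 98 strains in hippocampus (Spearman's rho 0.710) and 0.722 over 96 in striatum (rho 0.714). Each had a permutation p of 1e-05, adjusted 2.75e-05 for r and 3.14e-05 for rho over the 22 relations between members computed. These 22 include the relations within levels described below, which are given with no p. Without the 2 strains farthest from the median of Hba-a1, r was 0.646 (BXD32 and AXB19a left out) and 0.697 (RIII and DBA left out).

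The relation was present in each set. In hippocampus r was 0.618 in BXD, 0.524 in AXB/BXA, 0.777 in BXH and 0.877 in the classical strains, and in striatum 0.795, 0.817, 0.938 and 0.617. Over these 8 relations the permutation p of r, adjusted, ran from 2.67e-05 to 0.00594, and rho ran from 0.594 to 0.916 with an adjusted permutation p up to 0.0513, that of BXH in hippocampus (rho 0.609). The AXB/BXA set in hippocampus held AXB19b, the array that stood apart, with the highest Alas2 and the lowest Hba-a1 signal of the set: r was 0.791 without it and AXB19a. Without the 2 strains farthest from the median, r was lowest in the striatum of the classical strains (0.408) and in the hippocampus of BXH (0.492).

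**Figure D3:**
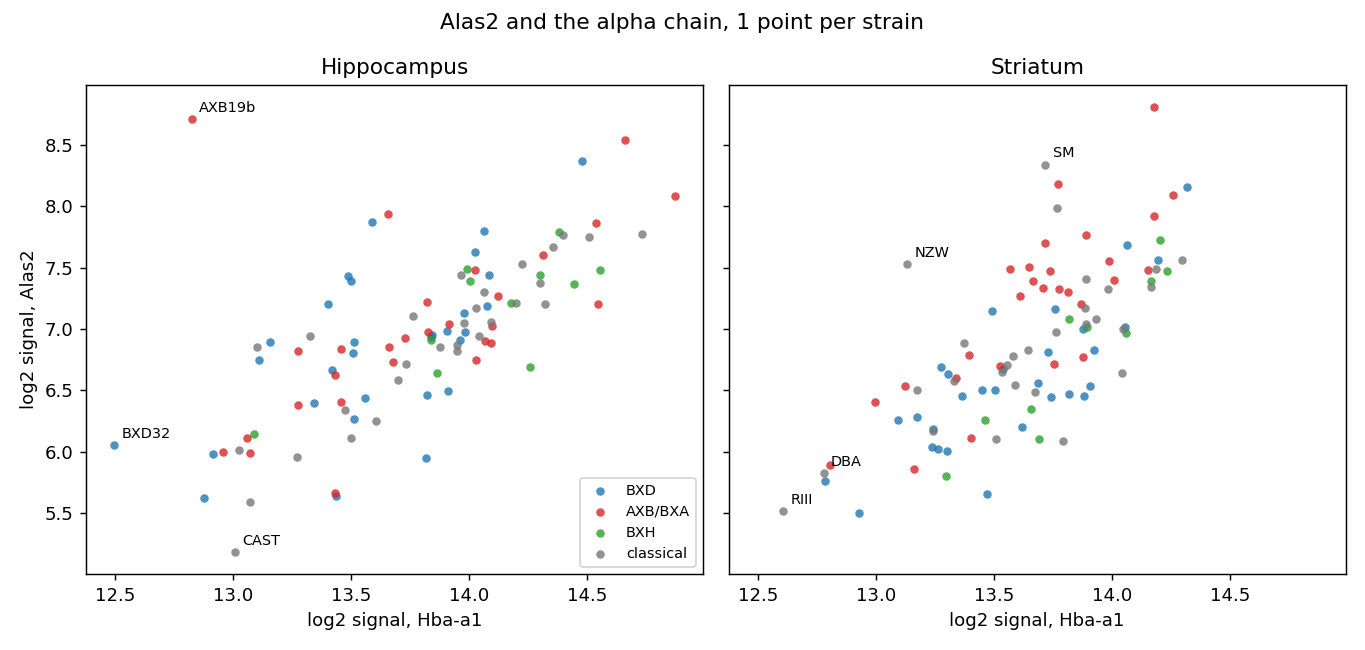
Log2 signal of Hba-a1 (horizontal axis) against that of Alas2 (vertical axis), a point per strain coloured by set, in hippocampus (98 strains, r = 0.666) and striatum (96 strains, r = 0.722). Alas2 climbs with Hba-a1 in every set, and AXB19b in hippocampus lies far above the other strains of its Hba-a1 signal.

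To ask which other probes went with the alpha chain, a slope on Hba-a1 was fitted to each of the 11745 other probes detected in both tissues, with the set in the model (limma, Benjamini-Hochberg adjustment over all of them). Alas2 had the largest moderated t of all these probes in each tissue. Its log2 signal rose by 0.95 ± 0.11 (SE) per log2 unit of Hba-a1 in hippocampus (limma adjusted p = 5.46e-10) and by 1.28 ± 0.12 in striatum (limma adjusted p = 1.25e-14). The size of the slope depended on the processing: with no background correction it was 0.47 and 0.62, and on the authors' processed values 0.53 and 0.45, past the threshold in each. Over all probes 0.162% rose with Hba-a1 in hippocampus (19 probes) and 0.017% in striatum (2 probes), and 0.281% and 0.0596% fell. Without the arrays that stood apart the slope of Alas2 was 1.08 and 1.33, and 0.0341% (4 probes, without AXB19b) and 0.0255% (3 probes, without SM and NZW) rose.

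The beta probes did not pass on their own. The slope was 0.97 ± 0.29 for Hbb-bt and 0.54 ± 0.27 for Hbb-b2 in hippocampus (limma adjusted p = 0.0715 and 0.198), and 0.65 ± 0.33 and 0.37 ± 0.30 in striatum (limma adjusted p = 0.47 and 0.668). A fit with the Hbb-bt level of each strain as a second covariate, chosen after seeing the data, is given as a description with no p, because that level was read from Hbb-bt and Hba-a1 themselves. In it the slope was 0.76 ± 0.09 for Hbb-bt and 0.74 ± 0.08 for Hbb-b2 in hippocampus, where 0.366% of all probes rose, and 0.66 ± 0.11 and 0.35 ± 0.12 in striatum, where 0.0255% rose. The slope of Alas2 with the level in the model was 0.95 and 1.28, as without it.

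Within a level the relations between members varied with the probe and the tissue, and they too are given with no p, since the level was read from Hbb-bt and Hba-a1. At the high level r between Hba-a1 and Hbb-bt was 0.719 in hippocampus (rho 0.674) and 0.616 in striatum (rho 0.583). At the low level it was 0.585 (rho 0.548) and 0.439 (rho 0.406), but there Hbb-bt was detected on 13 of 48 and 19 of 47 arrays, so that most of its signals could not be told from background. Without the 2 strains farthest from the median of Hba-a1 these r were 0.758, 0.577, 0.572 and 0.50. Alas2 and Hbb-bt had r of 0.610 (rho 0.602) and 0.503 (rho 0.508) at the high level and of 0.540 (rho 0.494) and 0.422 (rho 0.372) at the low level, with the same limit, and without the 2 farthest strains 0.617, 0.468, 0.466 and 0.344.

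Hbb-b2 followed Hba-a1 at the low Hbb-bt level, where Hbb-b2 itself was high and detected. There r was 0.837 in hippocampus (rho 0.854) and 0.472 in striatum (rho 0.354), and 0.808 and 0.390 without the 2 farthest strains. At the high Hbb-bt level, where Hbb-b2 was detected on 2 of 50 and 2 of 49 arrays, r was 0.306 (rho 0.277) and 0.0307 (rho 0.107), or 0.270 and 0.180 without the 2 farthest strains. The beta probes were opposed between the levels, and within them none of their r was below 0. It was 0.469 (rho 0.459) and 0.109 (rho 0.105) at the high and 0.607 (rho 0.633) and 0.552 (rho 0.456) at the low Hbb-bt level, and 0.429, 0.158, 0.543 and 0.518 without the 2 farthest strains. Alas2 and Hbb-b2 had r of 0.651 (rho 0.635) and 0.468 (rho 0.387) at the low Hbb-bt level, and 0.583 and 0.430 without the 2 farthest strains. At the high level they had 0.318 (rho 0.349) in hippocampus and -0.0508 (rho -0.03) in striatum, or 0.316 and -0.0147 without the 2 farthest strains.

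Other genes of haem synthesis and of red cells were described beside these. In the haem synthesis list 9 probes of 8 genes on the array were tested, and Alas2 was the only one that rose in either tissue, with none that fell. Uros, which makes the cyclic tetrapyrrole, had the next largest slope in this list in hippocampus, at 0.35 ± 0.09 (limma adjusted p = 0.0543), and 0.00 in striatum for the same probe. Without AXB19b its hippocampus slope was 0.19 (limma adjusted p = 0.189). Alas1, the form of the enzyme used outside red cells, had slopes of 0.07 and -0.09 (limma adjusted p = 0.273 and 0.527). The median slope of the list was 0.07 and 0.05, against 0.01 and 0.00 over all probes tested.

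Most red cell genes were not detected in these samples. Of 23 probes of the red cell and reticulocyte list 6 were detected on enough arrays to be tested (those of Bnip3l, Mkrn1, Sptb, Tspan33 and, with 2 probes, Tfrc), and none of the 6 rose or fell with Hba-a1 at an adjusted p under 0.05 in either tissue. These 5 genes are expressed in many cell types. Slc4a1, the anion exchanger of the red cell membrane, was detected on 4 of 100 hippocampus and 1 of 98 striatum arrays, Klf1, the erythroid factor that drives beta globin, on 3 and 2, and Epb42, Rhd and Trim10 on 0. In a bulk sample fewer cells of a type and less RNA per cell cannot be told apart.

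Markers of other cells in or around vessels did not pass the test with Hba-a1. No probe rose or fell among 5 of endothelium, 10 of choroid plexus, 4 of meninges, 3 of astrocytes and 8 of oligodendrocytes in either tissue, and 1 platelet probe was tested and did not pass. The median slopes in hippocampus were -0.04, 0.16, 0.17, 0.11 and 0.15 in that order. The largest single slopes were those of Folr1, a folate receptor of choroid plexus, at 0.51 ± 0.25 (limma adjusted p = 0.181), and of Ly6c1, on endothelium, at 0.42 ± 0.14 (limma adjusted p = 0.0823), both in hippocampus. Leaving out the single array AXB19b took Ly6c1 to 0.19 (limma adjusted p = 0.4) and Folr1 to 0.47, and the medians to 0.03, 0.08, 0.12, -0.01 and 0.05. No neutrophil or lymphocyte probe was detected on enough arrays in both tissues to be tested.

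The other probes with the largest t were few and shallow. In hippocampus Luzp1, which codes for a leucine zipper protein, fell by 0.33 ± 0.05 per unit of Hba-a1 (limma adjusted p = 9.44e-05) and Fbxl2, an F-box subunit of ubiquitin ligases, fell by 0.35 ± 0.06 (limma adjusted p = 0.000714), followed by Lrrc45 and Hic2, which also fell. Tle4, a corepressor, rose by 0.43 and Ptgds, the prostaglandin D2 synthase of meninges and choroid plexus, by 0.50 ± 0.10 (limma adjusted p = 0.0084 for both). Without AXB19b Tle4 was not among the 4 probes that rose, while Ptgds was, at 0.51 (limma adjusted p = 0.0094). In striatum Srsf2, a splicing factor, came next after Alas2 and fell by 0.36 ± 0.08 (limma adjusted p = 0.043).

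The Hba-a1 and Alas2 signals of a strain were correlated between its tissues. With 1 array per strain and tissue, strain, mouse and dissection cannot be told apart. Over 95 strains r between hippocampus and striatum was 0.705 for Hba-a1 (rho 0.693) and 0.614 for Alas2 (rho 0.603). Each had a permutation p of 1e-05, adjusted 3.33e-05 for r and 5e-05 for rho over 10 relations. These 10 include the relations within levels described below, which are given with no p. With the 2 strains of most extreme hippocampus signal taken out, r was 0.719 (BXD32 and AXB19a left out) and 0.642 (AXB19b and CAST left out). Such a relation was common on the array, since 42.7% of 11746 probes were positively correlated between the tissues at an adjusted p under 0.05, with a median r of 0.189. Hba-a1 ranked 734 and Alas2 1089 among them.

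Each set showed it for both probes. For Hba-a1 r was 0.637 in BXD, 0.657 in AXB/BXA (0.811 without AXB19a and AXB19b), 0.839 in BXH and 0.763 in the classical strains, and for Alas2 it was 0.597, 0.623, 0.924 and 0.598, with an adjusted permutation p of r up to 0.00115 over 8 relations and rho from 0.449 to 0.830, with an adjusted permutation p up to 0.0138. Without the 2 farthest strains r was lowest for Alas2 in BXD, at 0.396.

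Within a level the tissues were compared for each beta difference in turn. These relations are given with no p, since the level was read from Hbb-bt and Hba-a1 in hippocampus. The Hbb-bt minus Hba-a1 difference had r between tissues of 0.234 at the high level (rho 0.196) and 0.257 at the low level (rho 0.329). The latter became 0.546 on the authors' processed values. The Hbb-b2 minus Hba-a1 difference had 0.428 (rho 0.335) at the high and 0.353 (rho 0.433) at the low Hbb-bt level. On the authors' processed values it had 0.701 and 0.344. Without the 2 farthest strains the 4 r of the main setting were 0.182, 0.257, 0.396 and 0.366. At the high level Hbb-b2 was detected on 2 of 50 hippocampus and 2 of 49 striatum arrays. At the low level Hbb-bt was detected on 13 of 48 and 19 of 47. There each difference was mostly background minus Hba-a1, which itself had r of 0.705 between tissues over 95 strains. A shared beta value cannot be told from the shared Hba-a1 signal in these cases. The Hbb-bt signal had r of 0.574 (rho 0.540) at the high and 0.341 (rho 0.329) at the low level. Hbb-b2 had 0.688 (rho 0.606) at the low Hbb-bt level and 0.0286 (rho -0.01) at the high level, where it was nearly undetected. Without the 2 farthest strains the r of the signals were 0.535, 0.249, 0.657 and 0.0235 in that order of naming.

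**Figure D4:**
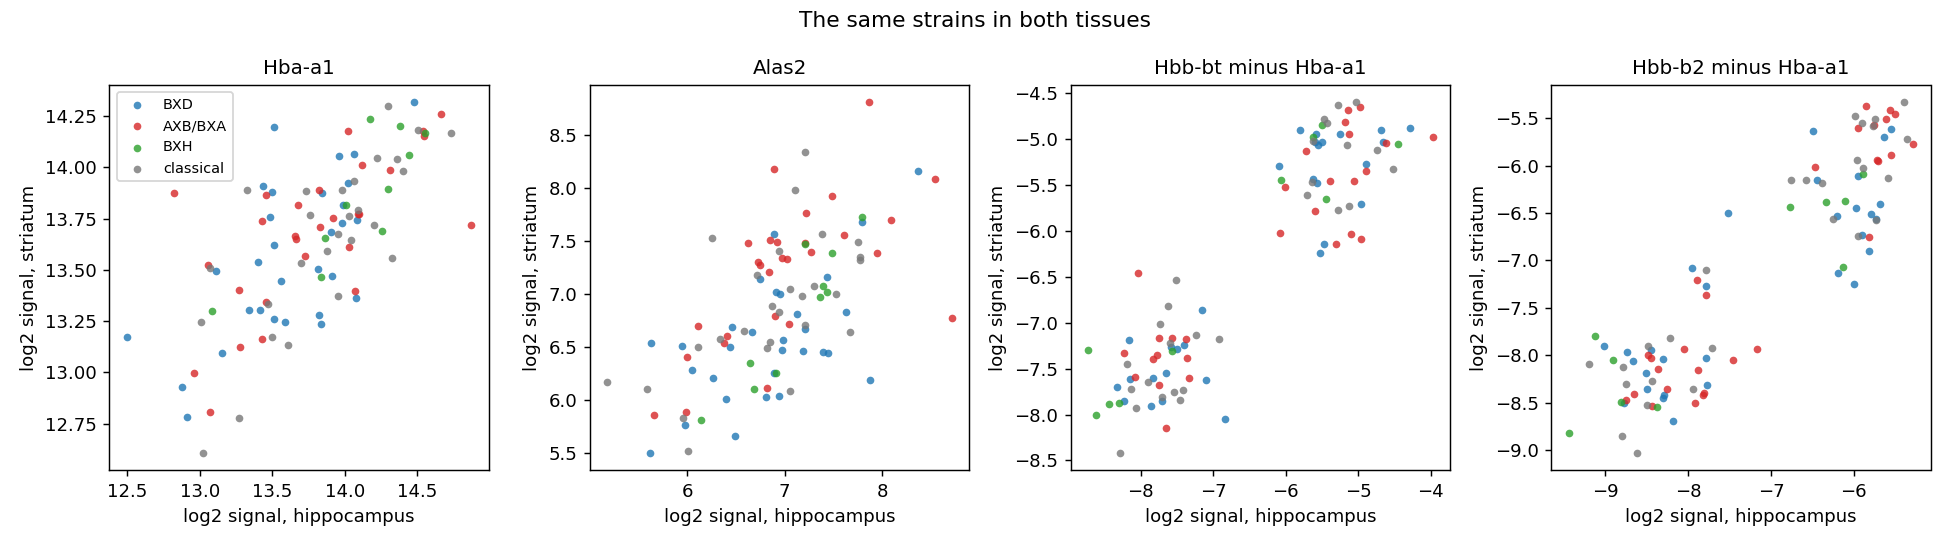
Values in hippocampus (horizontal axis) against striatum (vertical axis), a point per strain coloured by set, for the log2 signal of Hba-a1 and Alas2 and for the Hbb-bt and Hbb-b2 minus Hba-a1 differences. Hba-a1 (r = 0.705) and Alas2 (r = 0.614) form slanted clouds, and the Hbb-bt difference forms 2 groups with all 95 strains on the same side in both tissues.

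The globin and Alas2 probes had slightly lower signals in striatum than in hippocampus of the same strain. Within 0.1% the deposited intensities equalled the series table in 100% of hippocampus and 0.74% of striatum values. Processing before deposit may thus differ between the tissues, and it cannot be told apart from tissue here. Over 96 strains with both arrays, normalized jointly, Hba-a1 was 13.80 ± 0.45 (SD) in hippocampus and 13.62 ± 0.40 in striatum, a difference of -0.18 ± 0.03 (SE, limma with the strain as a block, adjusted p = 8.21e-07). Striatum minus hippocampus was -0.18 ± 0.06 for Alas2 (adjusted p = 0.00542), -0.22 ± 0.05 for Hbb-b2 (adjusted p = 0.000124) and -0.13 ± 0.06 for Hbb-bt (adjusted p = 0.0318), with the same limma fit. On the authors' processed values these were -0.09, -0.12 and -0.12, and Hba-a1 was -0.30, all past the threshold. Without background correction Alas2 was -0.09 and Hbb-b2 -0.13. The probe was higher in striatum in 24 of 96 strains for Hba-a1, 36 for Alas2, 32 for Hbb-b2 and 45 for Hbb-bt, so the tissues overlapped widely. None reached 2-fold, with folds of 1.13, 1.13, 1.16 and 1.09, and at this adjusted p 38.8% of 12775 probes were lower in striatum and 40.3% higher, 3.89% and 3.51% by 2-fold or more.

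The paired fit carried 3 of these calls. Without the strain as a block the limma adjusted p was 0.00447 for Hba-a1, 0.0878 for Alas2, 0.248 for Hbb-b2 and 0.534 for Hbb-bt. With each array centred on its median in place of quantile normalization Hbb-bt was -0.08 ± 0.06 (limma adjusted p = 0.176). Vessel and membrane markers moved between the tissues too. Of 6 endothelial probes 5 were higher in striatum and 0 lower, and 5 of 5 meningeal probes were lower. Of 10 choroid plexus probes 6 were lower and 1, that of Clic6, was higher, by 1.18 on the log2 scale. Over all 12775 probes 40.3% were higher and 38.8% lower at the same threshold. The part of these markers in the globin difference was not tested.

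The RI sets differed in one member in one tissue. Alas2 in striatum was 5.50, 6.50 and 8.16 in BXD (lowest, median and highest of 30 strains) and 5.86, 7.34 and 8.81 in AXB/BXA (28 strains). The ranges overlapped, and BXD minus AXB/BXA was -0.63 ± 0.17 (limma adjusted p = 0.00166, where 19.7% of 11746 probes were lower in BXD). With no background correction the difference was -0.32 and on the authors' processed values -0.28 (limma adjusted p = 0.00154 and 0.00188). In hippocampus the same strains had 5.62, 6.90 and 8.37 in BXD and 5.66, 6.91 and 8.71 in AXB/BXA, a difference of -0.18 ± 0.17 (limma adjusted p = 0.541). No other contrast between a pair of RI sets passed for any of the 4 probes. Over all probes and in either direction 12.4% differed between BXD and AXB/BXA, 1.07% between BXD and BXH and 6.02% between AXB/BXA and BXH in hippocampus, and 38%, 5.43% and 24.4% in striatum. The largest contrast of a member that did not pass was Hba-a1 in hippocampus, BXD minus BXH, at -0.46 ± 0.16 (limma adjusted p = 0.197).

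Since RI strains inherit blocks of a parental chromosome, probes that varied with the beta minus alpha difference were asked for by their place on chromosome 7. A slope on each difference was fitted over the RI strains with the set in the model (limma, 11742 probes, members left out). In hippocampus 40 probes (0.341%) were called for Hbb-bt and 29 (0.247%) for Hbb-b2, and in striatum 38 (0.324%) and 28 (0.238%). Of these 25, 27, 31 and 24 lay on chromosome 7, out of 805 tested there (3.11%, 3.35%, 3.85% and 2.98%), and 12, 0, 4 and 2 lay on other chromosomes. The remaining called probes had no symbol in the annotation used and were not placed. Among them was a probe called for Hbb-bt in both tissues that the paper lists under Picalm on chromosome 7. The chromosome 7 counts leave it out.

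The leading probes rose with Hbb-bt and fell with Hbb-b2. Mrpl48, a protein of the mitochondrial ribosome, lies 114 protein coding genes before Hbb-bt in chromosome order and had a slope of 0.54 ± 0.04 on the Hbb-bt difference in hippocampus (limma adjusted p = 2.15e-16) and 0.64 ± 0.05 in striatum (limma adjusted p = 6.77e-17). On the Hbb-b2 difference the same probe had -0.61 ± 0.04 and -0.60 ± 0.07. The nearest called gene on one side was Pgap2, a GPI anchor maturation factor 81 genes before, at 0.44 and 0.61 on Hbb-bt, and on the other Trim3, a ubiquitin ligase 84 genes after, at 0.27 and 0.36. Most nearby probes were not tested: of 210 within 100 genes of Hbb-bt, 40 passed the detection filter. Of these 40 the Hbb-bt difference called 4 in hippocampus (10%) and 3 in striatum (7.5%).

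Further leading genes lay on the side of Mrpl48: Lipt2 (124 genes before Hbb-bt), which acts in lipoate synthesis, Rps3 (136), a ribosomal protein, Myo7a (154), an unconventional myosin, Rsf1 (159), a chromatin remodelling factor, Ints4 (161), a subunit of the integrator complex, and Ctsc (195), a lysosomal protease. All had positive slopes on Hbb-bt and negative ones on Hbb-b2. Separate probes of a gene did not always move alike. A second probe of Rps3 had slopes of -0.04 and 0.01 on Hbb-bt and a second probe of Trim3 0.01 and 0.01, none of them called. The steepest called slopes on chromosome 7 belonged to Thumpd1, 252 genes after Hbb-bt, at 1.00 and 1.20 on Hbb-bt and -1.15 and -1.51 on Hbb-b2, a probe singled out after its values were seen.

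Probes called in hippocampus and in striatum were partly the same. Of those for Hbb-bt 22 were shared (55% of the hippocampus and 57.9% of the striatum calls) and of those for Hbb-b2 21 (72.4% and 75%), with the sign the same in all. The slopes on Hbb-bt and on Hbb-b2 share the Hba-a1 signal and the strains, so they are given side by side only. The counts leaned on the BXD strains: with BXD strains alone 31 and 34 probes were called in hippocampus, and with AXB/BXA strains alone 4 and 9. Without AXB19b the hippocampus counts were 52 and 48.

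**Figure D5:**
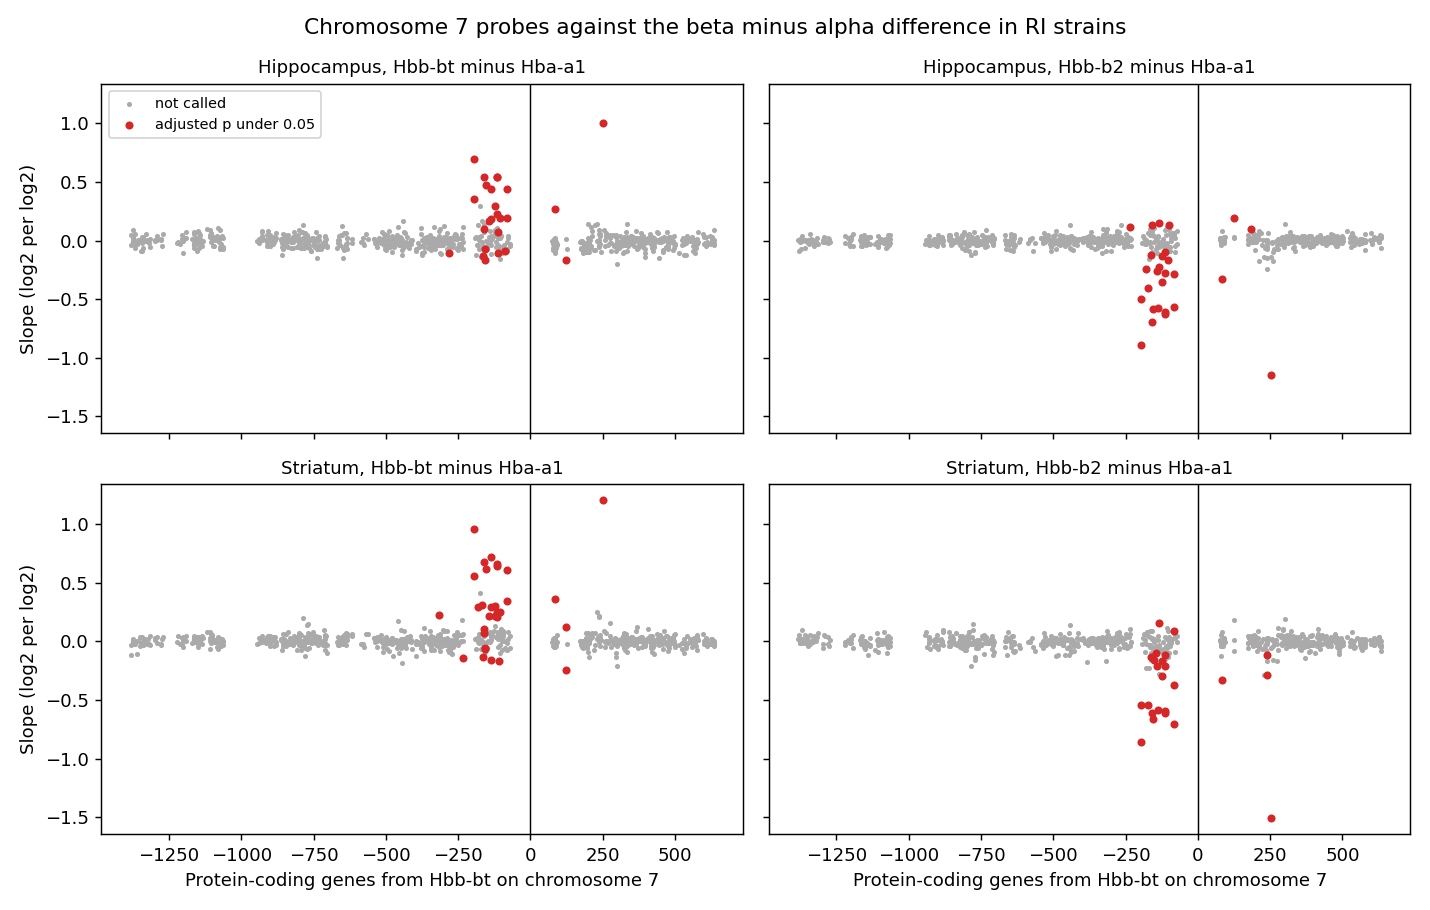
Slopes of the tested chromosome 7 probes on the Hbb-bt and the Hbb-b2 minus Hba-a1 difference (log2 per log2, vertical axis) against their place in protein coding genes from Hbb-bt (horizontal axis, negative before it), in each tissue, with probes called at a limma adjusted p under 0.05 in red. Called probes reach from Sv2b, 316 genes before, to Thumpd1, 252 genes after, with most of the steep ones between Ctsc (195 before) and Trim3 (84 after) and of opposite sign on Hbb-bt and Hbb-b2.

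The other globin genes of the array were checked in the same way. The embryonic chains Hba-x, Hbb-y and Hbb-bh1 and the theta-like Hbq1b were detected on 0 arrays of either tissue. Hbq1a, annotated as a theta globin, was detected on 51 of 100 hippocampus and 0 of 98 striatum arrays, at 4.52, 6.28 and 9.59 (AXB19b) over hippocampus strains, and went with Hba-a1 at an r of -0.15, given without a test. Ngb, the globin of neurons, was detected by its probes on 39 and 82 of 100 hippocampus and on 4 and 19 of 98 striatum arrays, and Cygb, a globin of fibroblasts and some neurons, on all arrays. The muscle globin Mb was detected on 0 hippocampus arrays and on 1 striatum array, by 1 of its 2 probes. No probe carried the symbols Hba-a2 or Hbb-bs.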

How the data were processed

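Expression was measured in dissected hippocampus (100 arrays) and striatum (98 arrays) on Illumina MouseRef-8 arrays. The authors scanned the arrays and normalized them with the rank invariant option of BeadStudio (version not given in the sources used here). The authors deposited, per array and probe, a detection p-value beside the signal intensity, and a series table of processed intensities. Within 0.1% the deposited hippocampus intensity equalled the series table in 100% of values and the striatum intensity in 0.74%. Which normalization each deposited table carried was not settled by this comparison. No deposited value was on the log2 scale.

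Background was corrected with limma 3.58.1 in R 4.3.3 (normexp from the detection p-values, offset 16). The arrays of a tissue were then quantile normalized, those of both together where the tissues were compared, and put on the log2 scale. Other steps used Python 3.11.15, numpy 2.4.6, scipy 1.17.1, pandas 2.3.3 and matplotlib 3.10.9. Symbols came from the array annotation, updated through the RefSeq table of GRCm38.p6: 23978 probes had 1 symbol, 1719 were not listed, and coordinates of that table were used only for gene order. Fits used the 11746 probes that 20% or more of the arrays detected (p under 0.01) in hippocampus and also in striatum, or the 12775 that passed in either when tissues were compared, with lmFit and eBayes, Benjamini-Hochberg adjustment and a threshold of 0.05. The strain pairs the tissues in the labels and was a block. Correlations had 2-sided permutation p-values from 100000 permutations. Levels were called where a normal mixture of common SD lowered the Bayesian information criterion by over 10, with means at least 3 SD apart and at least 6 strains in the smaller level. They describe values and were not tested against each other. Scripts were tested on simulated data.

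Members and gene lists were chosen with earlier results of these data known. Named are all probes of the members and of other globins, the genes of a list with the largest slopes, and leading probes out of the 10 of largest absolute t per fit. Alternatives were the authors' processed values (floor 16), no background correction, no detection filter, other normalization or covariates, fewer sets and arrays that stood apart left out. The Hbb level in the model, the treatment of B6Cc3 and correlations within levels were added after seeing the data. Precision is limited by the number of arrays and by signals near background.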

Additional observations from a re-analysis of the deposited data

Results flagged for a closer look

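One result was marked because an effect differed between groups of strains. The difference of Alas2 between striatum and hippocampus was lower in BXD than in AXB/BXA by an interaction of -0.43 ± 0.15 on the log2 scale (SE, limma adjusted p = 0.0268), where 12.3% of 12775 probes had a lower interaction at that threshold. Alas2 had a striatum mean of 6.58 in BXD and 7.20 in AXB/BXA and a hippocampus mean of 6.85 and 7.03. For Hba-a1, the chain whose signal Alas2 followed, the same interaction was 0.03 ± 0.09 (limma adjusted p = 0.854). Without AXB19b the value for Alas2 was -0.51 (limma adjusted p = 0.00293), and on the authors' processed values -0.18 (limma adjusted p = 0.0674). In the one group small enough for a check of single outlying strains, BXH in striatum, none stood out in any of 6 measures.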

How the results depend on the processing

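Of 292 single values computed again under other settings 274 kept their direction and call, and of 55 main counts 44 stayed within 1.5 times and 11 did not. Without the background correction or on the authors' values, where differences near background are narrower, called slopes and differences of Alas2 and Hbb-b2 were smaller, several by over 1.5 times, as given above. Leaving out the strain as a block ended the tissue call of Hbb-bt, Alas2 and Hbb-b2, and median centring that of Hbb-bt, as given above. On the authors' processed values 2 of the 4 beta minus alpha differences had separate levels (Hbb-b2 in hippocampus and Hbb-bt in striatum), against 4 of 4 in the main setting and 3 of 4 without background correction. With Alas2 as the covariate in place of Hba-a1, only Hbb-bt and Hbb-b2 were tested, and 0 of them rose in either tissue. Both Alas2 and Hba-a1 were left out of that fit. The 2 member calls with Hba-a1 as the covariate were those of Alas2 in each tissue, so the counts cannot be compared. The count also moved with the Hbb level in the model, but that level was read from Hbb-bt and Hba-a1, so its calls are not given. Probes called with the Hbb-bt difference in hippocampus numbered 96 without background correction and 4 in AXB/BXA strains alone, against 40, and those with the Hbb-b2 difference 9 in AXB/BXA strains alone and 48 without AXB19b, against 29. In striatum the authors' values gave 99 (Hbb-bt) and 98 (Hbb-b2) and AXB/BXA strains alone 11 and 12, against 38 and 28. The direction turned for 5 values. AXB/BXA minus BXH for Hbb-bt, not called in any setting, went from 0.11 to -0.0123 (authors' values) and -0.0118 (no background correction) in hippocampus and from 0.03 to -0.0531 and -0.0409 in striatum. For r of Alas2 with Hbb-b2 in striatum at the high Hbb-bt level, where Hbb-b2 was mostly undetected, the value was -0.0508 and became 0.359 on the authors' values. Between tissues, r of Hbb-bt at the low level was 0.341 in the main setting and 0.295 on the authors' values. It was 0.288 without the strains whose arrays matched another strain best. For the Hbb-bt difference at the low level r went from 0.257 to 0.546 on the authors' values and 0.632 without background correction. The cause of these shifts was not tested. A mean over several Hba-a1 probes was not run, since the array has 1. Signal near background limits Hbb-bt in low and Hbb-b2 in high strains.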
